A study of Mus musculus with 9 samples.

Results

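The regions described here belonged to 221 protein-coding genes. These genes combined an accessible promoter with many further accessible regions in embryonic pharyngeal mesoderm and heart tissue. A gene was a member when its RefSeq transcript was coding, at least 5 distinct regions were assigned to it, and at least 1 of them had its center within 1 kb of the assigned transcription start site (TSS). The 221 member genes made up 2.11% of the 10460 coding genes with a region. They held 1406 of the 17164 distinct regions (8.19%), and 17.3% of the 6643 coding regions that lay beyond 1 kb. Region number and distance to the TSS therefore chose the members, and both are given below as description only.

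Pharyngeal mesoderm and heart tissue was dissected from embryonic day 8.75 mouse embryos at the stage of 6 somites and profiled by ATAC-Seq, an assay that marks open DNA by where a transposase can insert sequencing adapters. The study profiled 3 libraries in each of 3 genotypes, wild type, Isl1-/- and Isl1Cre+/-/ Brg1fl/fl, the last of which removes the remodeler Brg1 in cells with Isl1-driven Cre activity and their descendants. The values used here were 1 wild-type list of regions found in common by the replicates, and both mutant genotypes were not analyzed here. The list held positions and assigned genes with no signal height and no value per library, so the depth is unknown, no value has a replicate error and no test was possible. Intervals are 95% Wilson intervals and cover counting error over regions or genes only.

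Promoters recruit the transcription machinery, and most hold open chromatin in many cell types. Enhancers lie at a distance, in introns, in intergenic sequence or within neighboring genes, and contact a promoter through chromatin looping. Genes that control development often have several enhancers spread over long gene-poor intervals, each used in a different tissue or stage. An accessible region is a candidate regulatory element, and its assignment to a gene does not show that it acts on that gene. In dissected tissue, an open region in few cells and a weakly open region in many cannot be told apart.

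To show what such regions look like, the central 300 bases are printed for the promoter regions of Isl1, the LIM-homeodomain factor of the second heart field, and Jag1, a Notch ligand. They are followed by 1 distal region each of Isl1, the pharyngeal coactivator Eya1, the homeobox factor Meis2 and the adhesion protein Flrt3, taken as the region of each gene with the most motif kinds, with ties settled by width. The tie arose at Eya1, where the region at 137 kb also held 3 kinds, and the wider one that is shown had a GC content of 60.1%, above the other distal regions of the gene. Sequences are from the plus strand of NCBIM37 (mm9). Capitals mark letters that match any of 19 short motifs searched on both strands, which are spelled out further below.
Isl1 promoter, chr13:117100032-117100331: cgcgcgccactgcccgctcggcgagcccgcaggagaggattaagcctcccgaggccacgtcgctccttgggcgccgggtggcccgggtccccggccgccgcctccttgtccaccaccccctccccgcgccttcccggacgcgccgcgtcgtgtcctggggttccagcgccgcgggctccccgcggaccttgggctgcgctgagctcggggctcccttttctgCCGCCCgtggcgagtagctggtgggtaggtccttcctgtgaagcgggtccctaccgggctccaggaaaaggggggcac
Jag1 promoter, chr2:136942579-136942878: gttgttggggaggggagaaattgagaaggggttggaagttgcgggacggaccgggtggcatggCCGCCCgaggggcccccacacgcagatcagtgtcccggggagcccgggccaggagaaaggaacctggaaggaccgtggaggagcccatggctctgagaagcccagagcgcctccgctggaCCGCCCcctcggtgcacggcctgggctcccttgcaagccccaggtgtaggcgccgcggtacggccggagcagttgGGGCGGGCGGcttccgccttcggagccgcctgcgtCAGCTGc
Isl1 distal region, chr13:117365297-117365596: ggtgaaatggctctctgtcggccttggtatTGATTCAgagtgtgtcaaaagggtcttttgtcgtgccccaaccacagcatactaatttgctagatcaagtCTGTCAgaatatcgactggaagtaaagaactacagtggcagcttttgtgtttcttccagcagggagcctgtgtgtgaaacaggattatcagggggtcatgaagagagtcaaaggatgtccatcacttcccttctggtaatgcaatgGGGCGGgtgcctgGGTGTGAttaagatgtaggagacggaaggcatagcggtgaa
Eya1 distal region, chr1:14496686-14496985: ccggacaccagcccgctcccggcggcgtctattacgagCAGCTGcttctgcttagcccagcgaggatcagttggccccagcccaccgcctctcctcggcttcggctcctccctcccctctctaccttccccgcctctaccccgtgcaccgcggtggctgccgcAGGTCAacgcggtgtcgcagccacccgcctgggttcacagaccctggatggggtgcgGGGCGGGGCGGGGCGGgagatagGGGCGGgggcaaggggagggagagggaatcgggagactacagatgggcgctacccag
Meis2 distal region, chr2:115685719-115686018: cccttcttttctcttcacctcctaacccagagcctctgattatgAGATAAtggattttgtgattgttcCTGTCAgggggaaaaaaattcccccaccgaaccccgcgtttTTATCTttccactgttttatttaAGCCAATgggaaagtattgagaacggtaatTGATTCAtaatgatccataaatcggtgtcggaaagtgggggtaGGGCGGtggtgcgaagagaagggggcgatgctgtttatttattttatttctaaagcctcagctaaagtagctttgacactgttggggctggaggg
Flrt3 distal region, chr2:141097318-141097617: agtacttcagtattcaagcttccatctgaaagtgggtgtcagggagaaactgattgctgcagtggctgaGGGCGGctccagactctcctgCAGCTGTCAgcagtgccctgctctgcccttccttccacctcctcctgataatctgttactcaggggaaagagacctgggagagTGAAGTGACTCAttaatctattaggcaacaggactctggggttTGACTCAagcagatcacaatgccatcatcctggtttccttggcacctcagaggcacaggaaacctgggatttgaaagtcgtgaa

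The promoter windows were rich in CpG dinucleotides, with 12 per 100 bp at Isl1 and 8.33 at Jag1, and their GC contents were 74.3% and 70.3%. The Isl1 promoter held 1 SP/KLF match, and the Jag1 promoter held 4 SP/KLF matches and 1 E-box. The distal Isl1 window, 618 bp wide as a region and centered -265551 bp from the TSS, held 4 matches, namely 1 each of T-box, TALE, AP-1 and SP/KLF. The Eya1 window at -196556 bp had 6 matches, of which 4 were SP/KLF, and some of these overlapped in 1 run. The Meis2 window at 204486 bp held 2 GATA matches with 1 TALE, 1 AP-1, 1 NFY and 1 SP/KLF. The Flrt3 window at -600256 bp, inside an intron of another gene, held 6 matches, including 2 to AP-1. A match of letters is a description and not a binding site.

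Most members sat near the lower limit of the rule. There were 107 genes with 5 regions, 45 with 6, 30 with 7 and 39 with 8 or more, the last group reaching 21 at Nrxn3. A single promoter region was found at 194 genes, 2 at 21 genes and 3 at 6 genes, so 254 of the 1406 regions were promoter regions and 1152 were distal. The regions of a gene spanned a median of 423 kb, with quartiles of 230 and 702 kb, and covered a median of 6523 bp. Neighboring regions of the same gene were spread apart rather than packed: the median gap was 53.6 kb, 130 of 1185 gaps were at most 10 kb and 385 (32.5%) exceeded 100 kb.

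At the limit of region number, 107 members with 5 regions stood beside 224 genes with a promoter region and 4 regions. Median widths over all their promoter regions were 1692.5 and 1551 bp, and median territories were 955811 and 588732 bp. At the limit of distance, the members with the farthest nearest region were Dach1 at 972 bp, Ikzf2 at 923 bp and Lrrc4c at 866 bp from a TSS. Just outside were Gpc6 at 1020 bp and Erbb4 at 1059 bp, which had 5 and 6 regions. Nr2f2, a nuclear receptor, had 9 regions and was left out at 1220 bp.

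**Figure D1:**
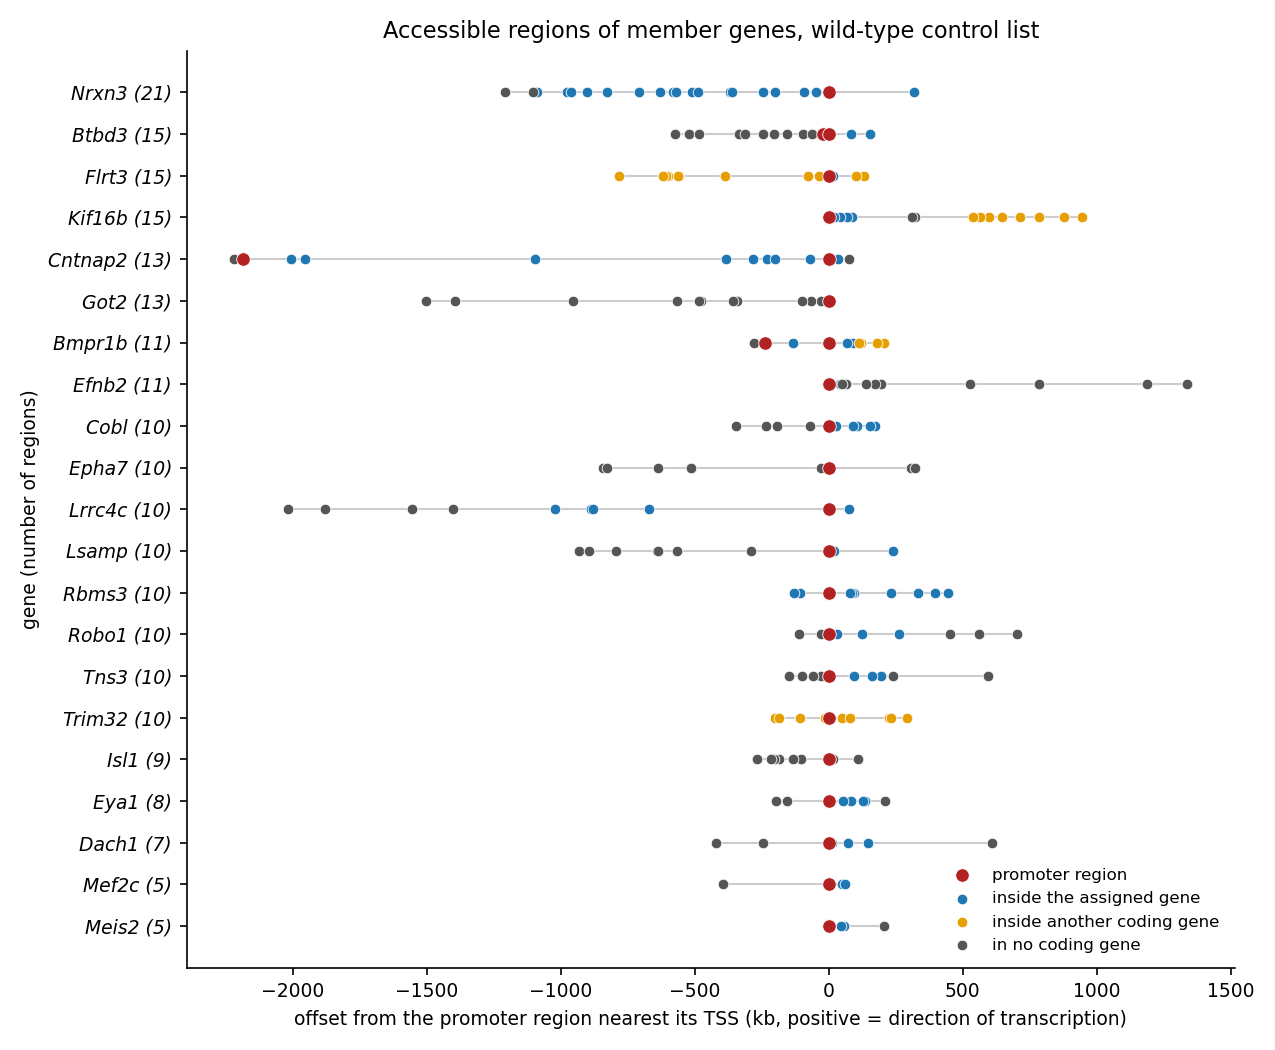
Position of each accessible region of member genes with the most regions or in the heart and pharyngeal lists, relative to the promoter region nearest its TSS, in kb along the direction of transcription, with the number of regions in brackets. Each point is 1 region and colors give its place, and a reader should see that Kif16b and Efnb2 carried their distal regions downstream, Got2 upstream, Nrxn3 mostly inside its own gene, and Flrt3 and Trim32 inside another gene.

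The map of region positions showed several layouts among the genes with the most regions. Nrxn3, a presynaptic adhesion gene, had 18 of its 20 distal regions inside its own gene, which is 1612 kb long. Its single promoter region, 1891 bp wide, lay at the most downstream of the 3 annotated starts from which distances were given. Cntnap2, a neurexin-like adhesion gene of 2241 kb, had 13 regions, 2 of them promoter regions of 1097 and 986 bp. Both also had a distal region at another annotated start of their own gene, at -71.6 kb in Nrxn3 and -200 kb in Cntnap2.

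Distances were measured from more than 1 annotated start in 67 of the 219 member genes matched to the annotation, from 2 starts in 48, from 3 in 16 and from 4 in 3. A further 26 distal regions lay within 1 kb of another annotated start of their own gene, by the GENCODE annotation. Another 12 lay at a start of a different coding gene and 18 at a noncoding start. These 56 regions were 4.86% of the distal regions, compared with 7.41% of the 2712 distal regions of genes with 2 to 4 regions and 8.64% of the 301 regions of genes with 5 or more regions but none at the promoter.

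A second layout was a gene with most distal regions outside it. Got2, which encodes the mitochondrial aspartate aminotransferase, is 24.4 kb long and had 12 distal regions, all upstream, from -13.7 to -1502 kb. Their widths ran from 830 to 1159 bp, and no coding gene held any of them. They reached past the nearest other coding starts, since the territory of Got2 by the GENCODE annotation was 659 kb. Efnb2, a ligand of Eph receptors and a marker of arteries, had a promoter region of 2662 bp and 10 distal regions, all downstream, from 40.9 to 1338 kb. Only 1 of these 10 was inside the gene, which is 43.8 kb long. Isl1 was smaller, with 11.4 kb of gene and 8 distal regions, 6 upstream and 2 downstream, none of which was inside the gene. Btbd3, which orients dendrites and is 333 kb long, had promoter regions at 2 starts, of 1756 and 1045 bp, and 11 distal regions upstream. The farthest of them, at -551 kb, was 2709 bp wide and so wider than either promoter region.

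A further layout was a gene nested in, or next to, a longer one. Flrt3, whose product binds FGF receptors, lies within Macrod2, a gene of 1998 kb. Of its 14 distal regions, 12 fell in Macrod2 and outside Flrt3, from -784 to 133 kb. Kif16b, a kinesin of early endosomes, lies beyond Macrod2 and had 14 distal regions, all downstream, of which 8 were in Macrod2, from 539 to 946 kb. Macrod2 itself had 2 regions. Trim32, a ubiquitin ligase gene of 11.3 kb, lies within Astn2, and each of its 9 distal regions was in Astn2, from -202 to 292 kb. Astn2 was also a member, with 5 regions of its own. Bmpr1b, a BMP receptor, had 4 of its 9 distal regions in Unc5c, Top2b had 3 in Rarb, and Tmem261 had 5 in Ptprd, 1005 to 1235 kb from its start.

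Over all members, 77 of 1147 distal regions with a matched gene (6.71%, interval 5.40 to 8.31%) lay in another coding gene and not in their own. The share was 9.45% (interval 8.40 to 10.6%) for genes with 2 to 4 regions and 9.15% (interval 6.37 to 13.0%) for genes with 5 or more regions and none at the promoter. Macrod2 held 20 of the 77, and Astn2 held 9. Inside their own gene lay 427 member regions (37.2%, interval 34.5 to 40.1%), compared with 32.7% (880 of 2688) and 35.9% (106 of 295) in these groups. By gene structure, 617 of the 1152 distal regions (53.6%) were intergenic, 455 (39.5%) intronic and 24 (2.08%) exonic.

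By gene, 64 of 219 matched members had most of their distal regions inside the gene, 60 had most outside and upstream, 45 had most outside and downstream, and 50 had no such majority. All distal regions were inside the gene for 25 members, and none was for 67. Distal regions were upstream only in 28 members, downstream only in 45 and on both sides in 148. Upstream centers made up 44.4% of member distal regions (interval 41.5 to 47.2%), compared with 44.2% for genes with 2 to 4 regions and 45.8% for genes without a promoter region.

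Distances exceeded 100 kb for 675 member regions, which were 58.6% of the distal regions (interval 55.7 to 61.4%). The share was 26.5% (interval 24.8 to 28.2%) for genes with a promoter region and 2 to 4 regions, and 62.8% (interval 57.2 to 68.1%) for genes with 5 or more regions and none at the promoter. Median absolute distances were 135, 46.1 and 162 kb. A total of 158 member regions lay beyond 500 kb. The 5 farthest belonged to Dsel at -1812 kb, Slitrk5 at 1508 kb, Got2 at -1502 kb, Acvr2a at -1446 kb and Ptprd at 1414 kb. Acvr2a, an activin receptor, had 7 distal regions, all upstream, and Ptprd, a receptor phosphatase gene of 2271 kb, had all 6 inside the gene.

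**Figure D2:**
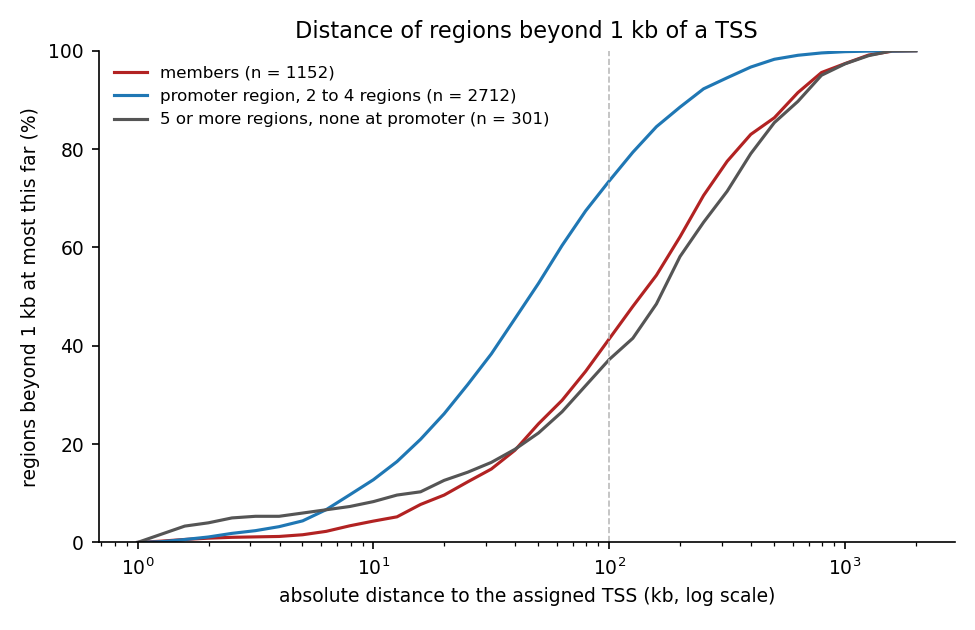
Share of regions beyond 1 kb (vertical axis, in percent) at or below each absolute distance to the assigned TSS (horizontal axis, in kb on a log scale), for 1152 member regions, 2712 regions of genes with 2 to 4 regions and 301 regions of genes with none at the promoter. The member curve runs beside that of genes with none at the promoter and to the right of genes with 2 to 4 regions. The dashed line marks 100 kb, beyond which 58.6% of member regions lay.

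The members lay in long intervals free of other coding starts. The territory of a gene, taken as the interval between the nearest starts of other coding genes on either side of its TSS, had a median of 1022 kb for 218 members. Medians were 277 kb for genes with a promoter region and 2 to 4 regions, 83.7 kb for genes with 1 region at the promoter, and 1510 kb for genes with 5 or more regions and none at the promoter. Gene lengths had medians of 148, 50.9, 25.0 and 186 kb in the same order. Per Mb of territory, members had a median of 4.97 distal regions, compared with 4.34 for genes with 2 to 4 regions. The median was 4.42 for genes with 5 or more regions and none at the promoter. Region number chose these groups, and some counted regions lay outside the territory, so these values are given as description only. If regions were assigned by position, an interval with few starts can collect more of them. The part of territory in the membership was not tested.

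Sorted by territory into deciles of 1034 or 1035 genes, the highest decile held 145 members (14.0% of its genes, interval 12.0 to 16.3%), which were 66.5% of the members with a territory. The next held 41 (3.97%), and the one after it 19 (1.84%). The 4 lowest deciles together held 1 member. Across 10342 coding genes, Spearman's rho between territory and region number was 0.44, and among the 218 members, whose number is limited from below by the rule, it was 0.25. Both are descriptions across genes of 1 list, and neighboring genes share territory.

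**Figure D3:**
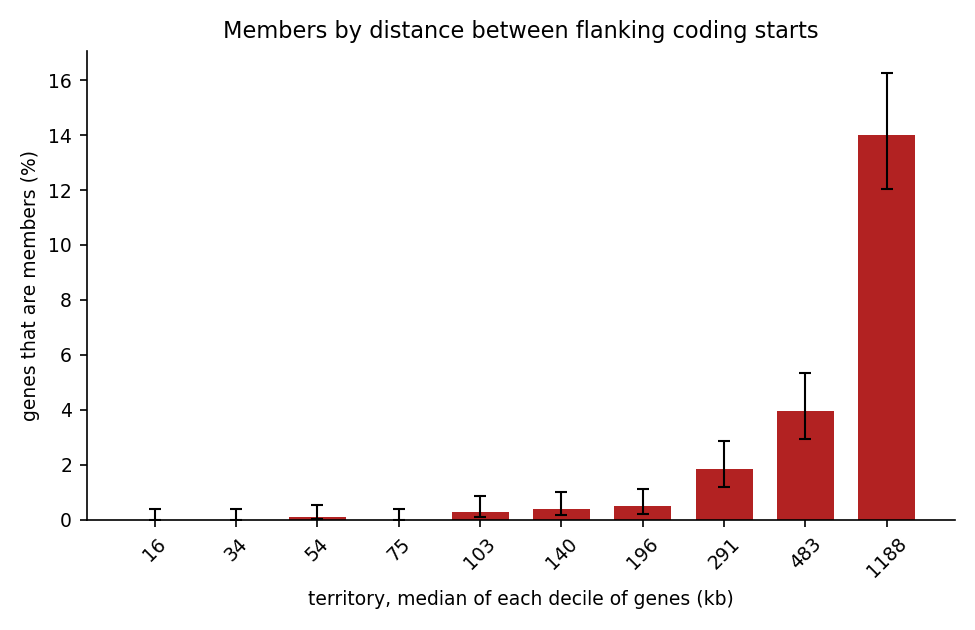
Share of coding genes that were members (bars, in percent, with 95% Wilson intervals) by decile of territory, with the median territory of each decile in kb on the horizontal axis. Bars stay at or below 0.48% up to a median of 196 kb and reach 14.0% at a median of 1188 kb.

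Promoter regions of members were wide. Their median width was 1676.5 bp (quartiles 1272 and 2114 bp, 254 regions), compared with 1413 bp (1152 and 1804 bp, 2145 regions) for genes with 2 to 4 regions and 1257 bp (1062 and 1532 bp, 6366 regions) for genes with 1 region. Distal regions had similar widths, with medians of 949.5 bp for members and 934 bp for genes with 2 to 4 regions. The median was 1003 bp for genes with 5 or more regions and none within 1 kb of the listed TSS. Of the 301 regions of that last group, 20 (6.64%) lay within 1 kb of another annotated start of their own gene. Its regions at 1 to 10 kb had a median width of 1633 bp and a median GC content of 54.4%. Promoter width also moved with territory. Above 1 Mb, the median was 1832 bp for 113 members, 1605 bp for 271 genes with 2 to 4 regions and 1503 bp for 105 genes with 1 region. Between 300 kb and 1 Mb the medians were 1615, 1544.5 and 1387.5 bp, and between 100 and 300 kb they were 1436, 1359 and 1325 bp. The order of the groups was the same in these 3 classes, and the quartile ranges overlapped in each.

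**Figure D4:**
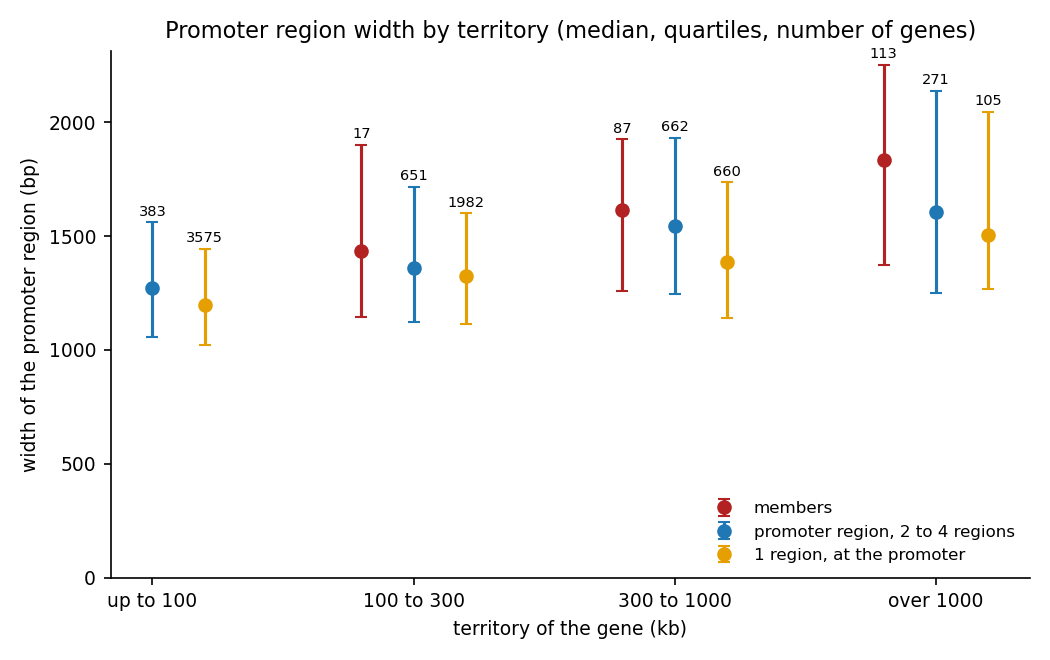
Width of the promoter region nearest the TSS (vertical axis, in bp; points are medians, bars the quartiles and numbers the genes) by class of territory in kb, for members, genes with 2 to 4 regions and genes with 1 region. Medians rise with territory in each group, to 1832 bp for members above 1000 kb, and the class up to 100 kb held 1 member, which is not drawn.

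Within the members, width did not follow region number. Taking the promoter region nearest the TSS of each of the 218 members with a territory, the median width was 1694 bp for genes with 5 regions (105 genes), 1632 bp with 6, 1868 bp with 7 and 1539 bp with 8 or more. The widest promoter regions belonged to Adgrl3, a latrophilin adhesion receptor, with 3876 bp, Cdh11, a mesenchymal cadherin, with 3640 bp, Tle1, a Groucho corepressor, with 3536 bp, and Dach1, a partner of Eya proteins, with 3396 bp. The widest promoter region of LOC100861615 measured 3373 bp and lay in repeated sequence. Nrxn3 had the most covered bases, 22404 bp, followed by Btbd3 with 16373, Kif16b with 16101, Flrt3 with 16009 and Efnb2 with 14895 bp.

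Distal regions of members were poorer in GC and CpG than those of genes with fewer regions. Their median GC content was 45.1%, compared with 47.6% for genes with 2 to 4 regions. It was 45.5% for genes with 5 or more regions and none at the promoter. Median CpG frequencies were 1.03, 1.35 and 1.20 per 100 bp in the same order. By distance, the median GC content of member regions was 45.3% at 1 to 10 kb, 46.1% at 10 to 50 kb and 42.6% beyond 500 kb. The same classes had 50.1%, 48.6% and 42.8% for genes with 2 to 4 regions, so the groups lay closer together at the far end. Promoter regions had a median GC content of 56.4% in members, 57.9% in genes with 2 to 4 regions and 58.3% in genes with 1 region, and 5.26, 5.69 and 6.05 CpG per 100 bp.

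The motifs were searched by fixed letters, with N for any base. Those of developmental factors were AGATAA for the GATA family, GGTGTGA for T-box, TNAAGTG for NKX2, CTAATGG for the LIM homeodomain, TAATTA for other homeobox factors, GGAATGT for TEAD, ACAATGG for SOX, TGTTTAC for forkhead, CAGCTG for the E-box and TGACAG for TALE factors. Those of widely expressed factors were AGGTCA for nuclear receptors, TGANTCA for AP-1, CCGGAAG for the ETS family, GGGCGG for the SP/KLF family, CGCATGCG for NRF1, AAGATGGC for YY1 and AGCCAAT for NFY. The longer consensus motifs of CTCF, the insulator protein, and MEF2, a muscle factor, were searched by their usual degenerate letters. Each region counted once per motif when its central 300 bases held a match on either strand, and motifs could overlap. The E-box, homeobox, AP-1 and NRF1 motifs read the same on both strands.

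GATA motifs, read by factors of heart and blood, occurred in 206 of 1152 member distal regions (17.9%, interval 15.8 to 20.2%) and in 14.5% of all 8081 distal regions (interval 13.8 to 15.3%). The GATA share was 14.5% (interval 13.2 to 15.9%) for genes with 2 to 4 regions. For genes with 5 or more regions and none at the promoter it was 18.9% (57 of 301, interval 14.9 to 23.7%), so it was not particular to the members. Homeobox motifs occurred in 10.8% compared with 8.12%, TEAD motifs in 9.98% compared with 8.20%, and TALE motifs, read by Meis and Pbx factors, in 25.8% compared with 23.2%. SP/KLF motifs were less frequent, at 10.7% (interval 9.02 to 12.6%) compared with 19.3% (interval 18.5 to 20.2%), and so were ETS motifs, at 1.39% compared with 3.35%. CTCF motifs occurred in 3.13% of member distal regions and 4.37% of all. MEF2 motifs occurred in 2.26% and 1.98%, and the LIM homeodomain motif in 2.95% and 2.88%. All regions include the members, so the groups are not separate. Apart from GATA, these shares are set against all distal regions alone. Whether they were particular to the members cannot be read from them.

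**Figure D5:**
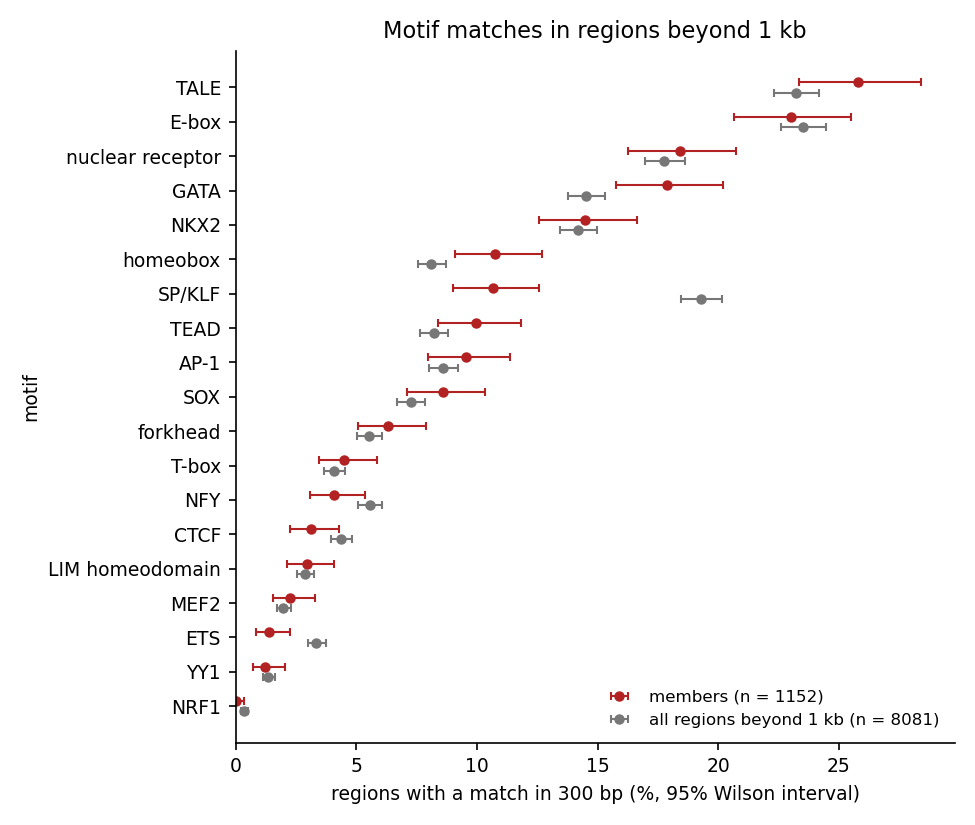
Share of regions beyond 1 kb with a match to each of 19 motifs in the central 300 bases (horizontal axis, in percent, with 95% Wilson intervals) for 1152 member regions and all 8081 regions. Intervals of the groups lie apart for GATA, homeobox, SP/KLF and ETS, and overlap for MEF2 and the LIM homeodomain motif.

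Base composition moved with these shares. Among regions of at most 42% GC, GATA motifs were in 24.1% of 274 member regions and 23.1% of 1273 regions in all, and above 50% GC they were in 9.73% of 185 and 7.72% of 2773. The corresponding shares were 19.8% and 18.9% between 42 and 46% GC, and 14.7% and 14.2% between 46 and 50%. The GATA intervals overlapped in each of the 4 classes. The homeobox intervals overlapped in each as well, with the widest gap at most 42% GC, 17.2% compared with 13.8%. SP/KLF intervals overlapped in the 3 classes up to 50% GC, and the shares were 28.1% (interval 22.1 to 35.0%) and 40.4% (interval 38.5 to 42.2%) above it. TALE shares were 23.4% and 24.5% at most 42% GC, and 24.25% and 26.5% between 42 and 46%. They were 30.7% and 25.2% between 46 and 50% GC, and 24.9% and 18.9% above 50%. The TALE intervals overlapped in each class. ETS intervals did as well, with shares of 0.365% and 0.786%, 0.75% and 1.76%, 1.71% and 3.42%, and 3.78% and 5.63% from the lowest GC class to the highest.

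At promoters, ETS motifs occurred in 14 of 254 member promoter regions (5.51%, interval 3.31 to 9.04%), compared with 10.8% (interval 9.53 to 12.2%) for genes with 2 to 4 regions and 18.5% (interval 17.6 to 19.5%) for genes with 1 region. Within 100 bp of the TSS the shares were 8.11% (6 of 74, interval 3.77 to 16.6%), 15.6% (interval 13.3 to 18.2%) and 24.0% (interval 22.6 to 25.5%), so the member interval overlapped that of genes with 2 to 4 regions and not that of genes with 1 region. Among promoter regions of genes with territories over 1 Mb, the shares were 6.45% of 124 regions, 5.54% of 289 and 7.62% of 105, and their intervals overlapped. SP/KLF motifs occurred in 57.1%, 68.4% and 70.4% of promoter regions, and in 71.6%, 76.6% and 73.2% where the center was within 100 bp of the TSS. At 100 to 300 bp the SP/KLF shares were 59.8%, 67.1% and 70.2%, with overlapping intervals. Over 300 bp they were 39.7% (31 of 78, interval 29.6 to 50.8%), 56.5% (interval 52.1 to 60.9%) and 59.5% (interval 56.0 to 62.8%). The member interval lay below both others there. With territories over 1 Mb the SP/KLF shares were 60.5%, 59.2% and 66.7%, and their intervals overlapped. TALE motifs were in 19.7% (interval 15.3 to 25.0%), 13.8% (interval 12.4 to 15.4%) and 14.3% (interval 13.5 to 15.2%). For centers within 100 bp of the TSS the TALE shares were 27.0% (20 of 74, interval 18.2 to 38.1%), 15.7% (interval 13.4 to 18.3%) and 14.7% (interval 13.5 to 16.0%). At 100 to 300 bp they were 19.6% (interval 13.1 to 28.4%), 13.0% and 13.7%, and over 300 bp 12.8% (10 of 78), 12.1% and 14.6%. The intervals overlapped in both of these classes. With territories over 1 Mb the TALE shares were 21.8%, 14.9% and 14.3%, and their intervals overlapped. No member promoter window held a CTCF or LIM homeodomain match (0 of 254, which by 3 counts allows a share of up to 1.18%), and their shares in all 9083 promoter regions were 0.506% and 0.892%.

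The members were then read by gene function, with 23 lists chosen from general knowledge and with earlier results of these data known. The background was 2.11% of coding genes with a region. Neuronal adhesion and synaptic genes had 11 members of 51 (21.6%, interval 12.5 to 34.6%), among them Adgrl3, Cntnap2, Dlgap1, Lrrc4c, Lsamp, Ncam2, Nrxn3 and Slitrk5. Axon guidance ligands and receptors had 8 of 45 (17.8%, interval 9.29 to 31.3%), with Dcc, Robo1, Efnb2, Epha3, Epha7 and 3 semaphorins. The median territories of these lists were 1715 and 635 kb, against which their counts have to be read. Cadherins had the longest, 1960 kb, and 3 members of 30. The part of territory in the counts was not tested. Genes with 5 or more regions and none at the promoter numbered 48. Of these, 5 were in the neuronal adhesion and synaptic list and 3 in the nuclear receptor list. The axon guidance list and the second heart field and pharyngeal list had 1 each, and the BMP and TGF-beta list had 0. Genes of several lists were thus found in both groups with many regions.

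Among guidance genes, Robo1, a receptor of Slit ligands, had 9 distal regions from -111 to 704 kb beside a promoter region of 2110 bp. Epha7, an Eph receptor, had 9 from -842 to 323 kb beside one of 2151 bp, in a territory of 5754 kb. Among the adhesion genes, Lrrc4c, a netrin-G ligand, had 10 regions over 2096 kb, and Lsamp had 7 distal regions upstream, as far as -931 kb, and 2 downstream. Of the other genes with 10 regions, Cobl, an actin nucleator, had 5 of 9 distal regions inside the gene, Tns3, a focal adhesion protein, 3 of 9, and Rbms3, an RNA-binding protein, 9 of 9.

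Regulators of the second heart field and pharynx had 6 members of 20 with a region (30.0%, interval 14.5 to 51.9%), in a median territory of 828 kb. Isl1, Meis2, Eya1 and Dach1 were among them, and the list overlaps the homeobox list, where 4 of 61 genes were members. Meis2 had 4 distal regions, all downstream, of which the region at 204 kb was outside the gene and 2512 bp wide, and its promoter region measured 3217 bp. Eya1 had 7 distal regions from -197 to 212 kb, and 4 of them were inside the gene. Dach1 had 6, from -420 to 610 kb, and 3 were inside the gene.

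Isl1 had its widest region, 1962 bp, at 15.5 kb and not at the promoter, which measured 1709 bp. Its 6 upstream regions, from -104 to -266 kb, were 556 to 1496 bp wide, and 1 of them, at -186 kb, held a MEF2 motif match. In the cardiac list, 1 of 14 genes with a region was a member, Mef2c, which had a promoter region of 2193 bp with a MEF2 motif match and 4 distal regions. The sarcomere list had 1 of 23, Nebl, a Z-disc protein, with a promoter region of 2037 bp and 4 distal regions from -114 to 60.8 kb.

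Signaling lists gave further members. The BMP and TGF-beta list had 6 of 41 (14.6%, interval 6.88 to 28.4%), among them the receptors Acvr2a, Bmpr1b and Tgfbr2, the ligand Bmp2 and the matrix protein Ltbp1. Bmp2 had distal regions at -225, -205, -154 and 2.44 kb. Tgfbr2 had 5, all upstream, of which those at -474 and -465 kb lay in Rbms3, itself a member with 10 regions. The retinoic acid list had 2 of 6, the receptor Rarb with 7 regions and the retinol dehydrogenase Rdh10 with 5. The FGF list had 2 of 21, Flrt3 and the feedback phosphatase Dusp6, whose promoter region measured 3141 bp. The Notch and Hedgehog list had 2 of 22, Jag1 and Gli3. Gli3, the transcription factor of Hedgehog signaling, had 9 regions within 209 kb, 6 of them inside the gene and distal.

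The remaining lists of factors and effectors had few members each. Nuclear receptors had 3 of 27 (Esrrg, Rarb and Thrb), the Wnt pathway 3 of 44 (the receptor Fzd1, the nuclear effector Lef1 and the polarity gene Prickle1), and bHLH factors 2 of 35 (Mycn and Tcf4). Zinc finger regulators had 2 of 49 (Gli3 and Ikzf2), and forkhead and Sox factors 1 of 25 (Sox5). Phosphodiesterases, GTPase regulators and phosphatases had 4 of 39 (Arhgap24, Ptprd, Ptprg and Vav3), and extracellular matrix genes 1 of 51 (the protease gene Adamts5). The shares ran from 1.96% for matrix genes to 11.1% for nuclear receptors. The intervals of the bHLH, zinc finger, forkhead and Sox, matrix, cardiac and sarcomere lists included the background of 2.11%.

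Some lists held no member. There were none among 36 ribosomal protein and housekeeping genes, whose median territory was 63.0 kb, none among 20 endothelial genes and none among 21 genes of the NFI, TEAD, Runx, Ets and AP-2 families. The intervals reached 9.64%, 16.1% and 15.5%, above the background of 2.11%, so these counts do not set the lists apart from it. Of the 221 members, 65 were in at least 1 list and 156 in none.

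The labelled tissue was checked against markers. A promoter region was listed for 6 of 10 second heart field and pharyngeal markers, with Isl1, Mef2c and Eya1 among the members, and for 3 of 10 cardiomyocyte markers, Actn2, Ryr2 and Hand2. Among the second heart field and pharyngeal markers, no region was listed for Tbx1, Fgf8 or Tcf21. No region was listed for Nkx2-5, Tbx5, Myh6, Myh7, Tnnt2 or Hand1, which define cardiomyocytes. Markers of other cells had promoter regions at 2 of 7 endothelial, 1 of 4 blood, 3 of 6 neural tube and 1 of 5 neural crest genes, and at none of 6 endoderm, 4 somite and 4 ectoderm genes. None of these was a member. A promoter region is not a level of expression, and a gene without a listed region is not shown to be closed.

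Member genes were neighbors in places. The 5 Mb window with the most member regions, on chromosome 2 from 140 to 145 Mb, held 30, from Flrt3 and Kif16b, of 66 regions in all, and the window before it held 23, from Btbd3 and Jag1. The 10 windows with the most held 14.7% of member regions, out of 168 windows with any. On chromosome 14, the topoisomerase gene Top2b with 6 regions and the nuclear receptors Rarb with 7 and Thrb with 6 shared a window. On chromosome 3, the regions of Lmo4 and Hs2st1 were 17.7 kb apart, the shortest distance between members that follow each other on a chromosome, and Bmpr1b lay in the same window. These windows were picked after their values were seen.

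A few members lay in repeated sequence. More than 50% of the 31-base words of the typical region occur elsewhere in the genome for 4 members, 2410018L13Rik, 5730507C01Rik and Gm4425 on chromosome 12 and LOC100861615 on chromosome 14. Reads there may be placed with less certainty, which was not measured. LOC100861615 had 3 promoter regions and the longest span of the members, 4961 kb. Other long spans were those of Dmd, the dystrophin gene, with 2800 kb and 5 regions, Cntnap2 with 2294 kb and Lrrc4c with 2096 kb. Without the 4 genes of repeated sequence, 217 members with 1385 regions remained, and the median widths of their promoter and distal regions were 1678 and 948.5 bp.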

How the data were processed

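ATAC-Seq was performed by the authors on pharyngeal mesoderm and hearts of embryos at embryonic day 8.75, grouped here by the genotype in the labels. Reads were mapped to mm9 with Bowtie2, duplicates removed with Picard 1.136, and peaks called per library with MACS at a fixed shift. Blacklisted peaks were removed, and peaks common to the wild-type replicates were kept with bedtools 2.15, where a shared base (1 bp) sufficed. Deposited columns hold start, end and distance to the TSS in bp, a RefSeq transcript and a symbol. How genes were assigned to these regions is not given in the sources used here. For its ChIP-Seq peaks, the paper names assignment to the closest TSS. A site missed in any of the 3 libraries is not listed, and widths include the shift and depend on unknown depth. Which library gave the listed start and end is not stated, so widths and centers may be those of 1 library.

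Rows with the same coordinates were counted once, and positions were read as 1-based. Sequence and genes came from NCBIM37 and its GENCODE annotation. Member symbols were matched to it directly for 212 genes, through synonyms for 7 and not for 2. Of 1396 matched member regions, 88.5% had a deposited distance within 100 bp of one to a GENCODE start. Places were read at the midpoint of each region. Members were compared with coding genes with a promoter region and 2 to 4 regions, with 1 region, or with 5 or more and none at the promoter. Named genes were those with the most regions (10 with ties), and the 5 with the longest span, widest promoter region, most covered bases or farthest region, and members of the heart and pharyngeal lists. Some genes that this rule or the lists name are not reported here. Other genes named come from the lists, or were chosen after their values were seen, as were the sequences printed. The members and lists were chosen with earlier results of these data known. Alternatives were other limits of the rule, all rows, only wider regions, autosomes, merged regions and motif windows of 200 or 500 bp. The genes of repeated sequence were left out as an alternative chosen after seeing the data. Functions were tested on simulated data. Python 3.11.15, numpy 2.4.6, pandas 2.3.3, scipy 1.17.1, numba 0.67.0 and matplotlib 3.10.9 were used.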

Additional observations from a re-analysis of the deposited data

How the results depend on the processing

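No paired analysis was possible because the list carries no replicate numbers, and for the same reason no library could be left out. Of 78 recomputed values, 56 stayed close to the reported value (counts within 1.5 times, shares and medians within their interval). They describe the members alone, and the comparisons with other genes were not recomputed under the alternatives. Limits of 500 or 2000 bp for the promoter, autosomes only, merging, which found nothing to merge, and leaving out the genes of repeated sequence moved none of the values tried. Requiring 4 regions gave 445 genes, 2302 regions, 21.9% of regions within 1 kb, 41.0% beyond 100 kb, a distal GC content of 45.6% and a median territory of 815747 bp. Requiring 6 gave 114 genes, 871 regions, 14.7% within 1 kb and 52.8% beyond 100 kb. The limit sets the counts, and the cause of the other shifts was not tested. Keeping the wider regions alone (1123 bp, the median, or more) left 19 genes and 104 regions, with 21.2% within 1 kb, 39.4% beyond 100 kb, a distal width of 1324.5 bp, a distal GC content of 45.9% and a territory of 868177 bp. The cause was not tested. Most members thus depend on regions below the median width, and whether such regions are listed can depend on depth, which is unknown. With all rows as deposited, 21.1% lay within 1 kb. GATA motifs were found in 11.4% of distal regions in a window of 200 bp and 27.2% in 500 bp, and MEF2 motifs in 1.30% and 5.12%, as wider windows hold more letters.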

Other observations

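Chromatin regulators and channel genes were further groups with members. Chromatin remodelers and modifiers had 4 members of 57 (7.02%, interval 2.76 to 16.7%), the CHD-family genes Chd6, Chd7 and Chd9 and the DNA demethylase gene Tet2, in a median territory of 154 kb. Chd7, which encodes a remodeler of neural crest and heart development, had distal regions at -42.5, -23.5, 160, 231 and 264 kb. The first of these was 2353 bp wide, wider than the promoter region of 1402 bp. Glutamate and GABA receptors and ion channels had 5 of 51 (9.80%, interval 4.26 to 21.0%). Tbx18, a T-box factor of the epicardium and sinus horn, had 5 regions, of which that at -8.80 kb was 2118 bp wide and the promoter region 2674 bp.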
